A study of Homo sapiens with 24 samples.

Results

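The genes described here are the 10 cyclins and partner kinases that drive cells through G1, S phase and mitosis: CCND1, CCND2, CCND3, CCNE1, CCNE2, CCNA2, CCNB1, CCNB2, CDK2 and CDK4. They were found by name among the non-control probes of an oligonucleotide array, where 12 of 34127 probes carried one of these symbols. CCNB1 and CCNE2 had a pair of probes each and the other genes had 1. A probe entered the test if some treatment had all 6 of its arrays well above background there. Of the 12 probes 11 did, for 9 genes, and each of these was above background on 24 of 24 arrays. The probe of CCND2 was left out by this filter.

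Total RNA came from HCT-116, a human colorectal carcinoma line with high Wnt activity, on 24 one-colour Agilent arrays that fell into 4 treatments of 6 arrays, 1 array of each treatment in each of 6 experiments. Every group carried the same transgenes, since the cells were a stably transfected clone with a vector for the Tet repressor and a vector from which doxycycline induces DN-Tcf4, a dominant negative form of the transcription factor Tcf4. Control cells (Ctl) received neither agent and are labelled both untreated and mock-treated. The other groups received 5 mM sodium butyrate (NaB), 4 μg/ml doxycycline (Doxy) or both agents (DoxyNaB). Per the study's methods doxycycline came first, and the later step with or without butyrate lasted 17.5 hr. How long doxycycline was given before that step is not stated. The study describes the experiments as biological replicates, and no parental line without the transgenes and no other clone entered the comparisons.

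A cyclin is the regulatory subunit that its cyclin-dependent kinase (CDK) needs in order to phosphorylate substrates. D-type cyclins with CDK4 and E-type cyclins with CDK2 phosphorylate the retinoblastoma protein and free E2F factors to transcribe the genes of S phase, cyclin A2 acts in S phase and G2, and B-type cyclins with CDK1 drive entry into mitosis. In colonic cells CCND1 is best known as a gene with TCF binding sites in its promoter, and butyrate, a product of fibre fermentation that inhibits histone deacetylases, is known for arresting colon carcinoma cells in culture.

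Levels are log2 of the background-subtracted signal after division by the array's own 75th percentile, so that 0 is the signal of the 75th percentile spot, and a level says nothing about one gene against another because probes differ in affinity. A change is a difference of such levels on the log2 scale, given with its SD over the 6 experiments, and a gene counts as changed at an adjusted p under 0.01 in limma with Benjamini-Hochberg adjustment over all 18984 probes tested.

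CCNA2 had the largest fall with butyrate alone among these genes, and with CCNB1 it has a probe in coding sequence, so these probes show which stretch of transcript was measured. The CCNA2 probe lies at chr4:122959445-122959504 on the minus strand and the CCNB1 probe at chr5:68507119-68508879 on the plus strand, in NCBI36 as the arrays give it. The second covers 1761 bases of genome for its 60 bases because it crosses an intron.
CCNA2 probe: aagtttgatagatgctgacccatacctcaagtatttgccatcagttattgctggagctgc
CCNB1 probe: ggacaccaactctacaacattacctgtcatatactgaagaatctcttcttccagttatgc

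CCNA2, CCNB1 and CCNB2 fell together in every experiment, and the 130 bases before their transcription starts are shown for the motifs that G2 and mitotic promoters are known to share, the CCAAT box and the cell cycle homology region (CHR), in capitals. The sequences are those of RefSeq on GRCh38.p14, at chr4:121823884-121824013 on the minus strand for CCNA2, chr5:69167020-69167149 on the plus strand for CCNB1 and chr15:59105016-59105145 on the plus strand for CCNB2, each read toward the start.
CCNA2: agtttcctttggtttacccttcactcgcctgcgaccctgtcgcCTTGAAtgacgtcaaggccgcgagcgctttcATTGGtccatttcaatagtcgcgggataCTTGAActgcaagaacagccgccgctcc
CCNB1: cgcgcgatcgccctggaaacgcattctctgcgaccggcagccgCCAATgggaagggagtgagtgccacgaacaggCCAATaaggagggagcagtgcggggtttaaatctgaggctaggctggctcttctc
CCNB2: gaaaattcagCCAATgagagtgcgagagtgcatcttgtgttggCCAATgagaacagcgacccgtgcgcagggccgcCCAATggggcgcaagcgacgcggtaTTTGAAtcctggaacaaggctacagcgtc

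Both strands of the 250 bases before the start were searched, in the promoters of the 6 genes that the table held (CCND3, CCNE1, CCNA2, CCNB1, CCNB2 and CDK4), and CCND3 counted through any of its 3 starts. The CCAAT box (CCAAT) was in 4 of the 6 and in 32.0% of all 35116 promoters. In CCNB2 it began 244, 120, 87 and 54 bases before the start, in CCNB1 87 and 55 bases before it, and in CCNA2 its reverse complement began at 56. In CCND3, the gene that rose with butyrate, the box began 136 bases before a start, and its reverse complement 64 bases before another. The CHR (TTTGAA or CTTGAA) was in 2 of the 6 and in 20.9% of all promoters, at 28 bases before the start in CCNA2, which held another copy at 87, and at 29 in CCNB2. These letters were not in the CCNB1 window. The GC box (GGGCGG) was in 6 of 6 and in 42.6% of all promoters, and in CCNB2 one copy overlapped a CCAAT box. None of the 6 held the searched E2F site (TTTGGCGC, TTTCGCGC or TTTCCCGC, 2.32% of all promoters) or the TCF site (CTTTGAT or CTTTGAA, 5.94%).

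Butyrate alone lowered 8 of the 9 tested genes and raised CCND3, and each moved the same way in 6 of 6 experiments. A fall at this threshold was seen for 29% of all 15145 gene names tested and a rise for 40.6%. With a fold over 2 added, 7 were lower and 1 was higher, against 11.4% and 21% of all gene names. The Ctl and NaB arrays did not overlap for 8 lower genes and 1 higher gene, where 20% and 25.3% of gene names did so. The median change of the 9 was -1.38, beside 0.17 over all probes tested. In whole cultures, fewer cells in S phase or G2 and less of a transcript in each cell cannot be told apart.

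**Figure D1:**
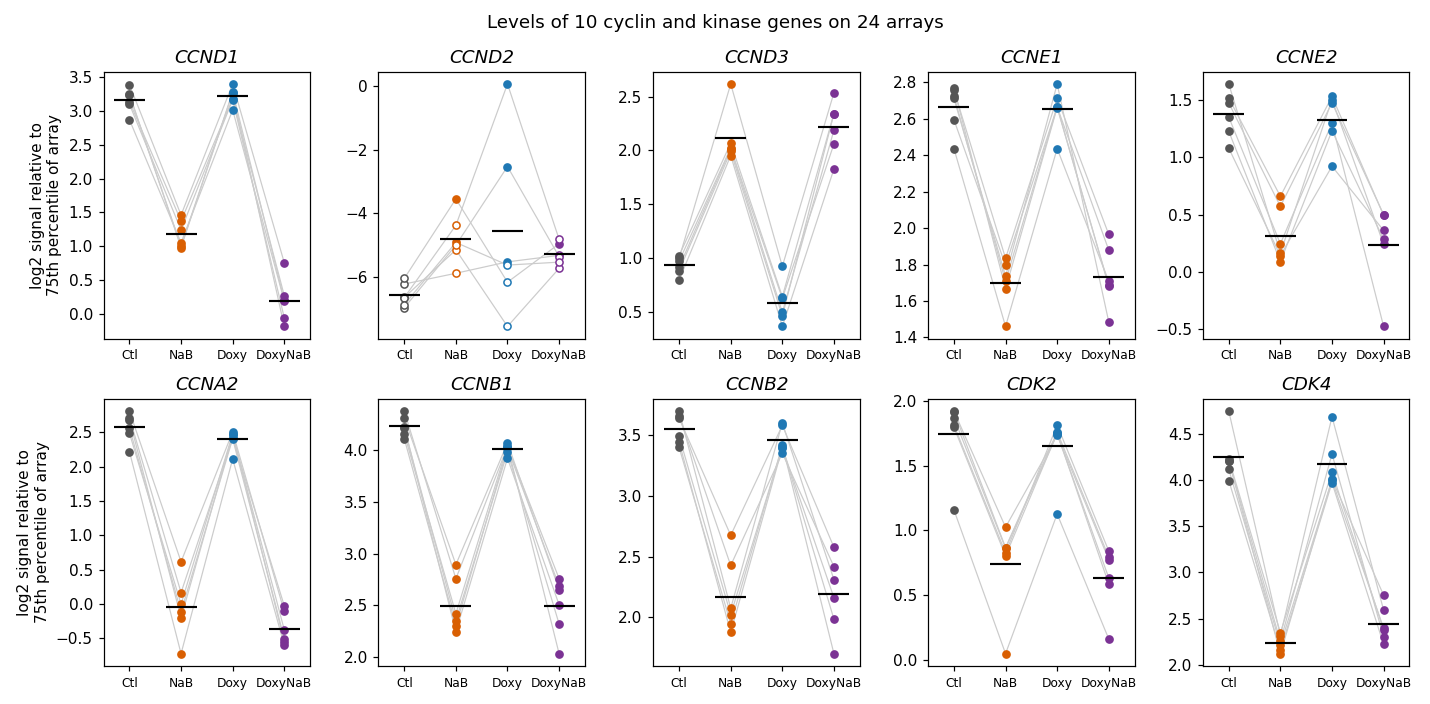
Levels of the leading probe of each gene (log2 signal over the array's 75th percentile, separate y axis per gene) in the 4 treatments. Points are arrays, filled where well above background and open where not, grey lines join the arrays of an experiment and black bars are means of 6. The butyrate arrays lie below the arrays without butyrate for all genes but CCND3, where they lie above, and CCND2, which was mostly at background.

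CCND1, the cyclin D1 gene, was at 2.87, 3.19 and 3.39 (lowest, median and highest) on the 6 Ctl arrays and at 0.98, 1.15 and 1.46 on the NaB arrays. It was at 3.01, 3.22 and 3.40 on the Doxy arrays and at -0.19, 0.20 and 0.76 on the DoxyNaB arrays. The Ctl and Doxy arrays covered one another, the NaB arrays lay below both, and the DoxyNaB arrays lay below all others. Butyrate alone lowered CCND1 by 1.98 ± 0.22 (SD, n = 6; limma adjusted p = 2.62e-12), or 3.94-fold. In the presence of doxycycline the same treatment gave -3.02 ± 0.29 (SD, n = 6; limma adjusted p = 1.21e-14), which is 8.12-fold lower.

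CCND3, the cyclin D3 gene, moved the other way. It was at 0.80, 0.94 and 1.02 on the Ctl arrays and at 1.95, 2.02 and 2.62 on the NaB arrays, and the lowest NaB array was above the highest Ctl array. The rise was 1.18 ± 0.22 (SD, n = 6; limma adjusted p = 1.20e-10), or 2.27-fold. On the Doxy arrays it was at 0.36, 0.56 and 0.92 and on the DoxyNaB arrays at 1.83, 2.27 and 2.54, again with no overlap. There the rise was 1.63 ± 0.17 (SD, n = 6; limma adjusted p = 1.46e-12). With each array scaled to its median after a floor of 5 instead, the rise with butyrate alone was 0.43 (limma adjusted p = 0.0790) while the median of all probes stood at -0.58. CCND3 lay 1.01 above the median of all probes under either scaling. Each scaling shifts all probes of an array alike, so these values had to match and say nothing more about the rise. With normexp background correction CCND3 lay 1.20 above that median, and with quantile normalization 1.42.

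CCND2, for cyclin D2, gave no test. Of 6 arrays each, its probe was well above background on 0 in Ctl, 2 in NaB, 3 in Doxy and 1 in DoxyNaB. The Doxy arrays ran from -7.57 to 0.08 around a median of -5.58, and the value of 0.08, in experiment 4, was far above the -6.66 of the Ctl array of that experiment. The next highest Doxy array was at -2.53, and the remaining arrays of the 4 treatments stood between -7.57 and -3.55.

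CDK4, the kinase partner of D-type cyclins, was at 3.99, 4.21 and 4.75 on the Ctl arrays and at 2.12, 2.23 and 2.35 on the NaB arrays. These groups stood well apart, and the highest Ctl value was that of experiment 1. CDK4 fell by 2.01 ± 0.22 (SD, n = 6; limma adjusted p = 1.48e-12), or 4.04-fold. With doxycycline present the levels were 3.97, 4.05 and 4.69 without butyrate and 2.22, 2.39 and 2.75 with it, which again did not overlap. The change there was -1.73 ± 0.30 (SD, n = 6; limma adjusted p = 1.07e-11).

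The E-type cyclins and CDK2 fell by about the same amount, near 2-fold. CCNE1 was at 2.44, 2.72 and 2.77 on the Ctl arrays and at 1.46, 1.72 and 1.83 on the NaB arrays. No NaB array reached the Ctl range, and the fall was 0.97 ± 0.10 (SD, n = 6), just short of 2-fold at 1.95-fold. CCNE2, read from its brighter probe, was at 1.08, 1.41 and 1.64 in Ctl and at 0.09, 0.20 and 0.66 in NaB. These ranges did not overlap either, and its change was -1.07 ± 0.23 (SD, n = 6). The dimmer CCNE2 probe gave -0.95 ± 0.15 (SD, n = 6) with overlapping groups, because the Ctl array of experiment 1, at -1.82, was below most NaB arrays.

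CDK2, the kinase that E- and A-type cyclins activate, was at 1.16, 1.84 and 1.92 in Ctl and at 0.05, 0.84 and 1.02 in NaB. Experiment 1 was lowest in each of the 4 treatments, yet within experiments the fall was even, with an SD of 0.07 (n = 6) that was the smallest of the 9 genes, and it came to 2.01-fold. In DoxyNaB/Doxy the changes were -0.92 ± 0.22 for CCNE1, -1.09 ± 0.40 for CCNE2 and -1.02 ± 0.09 for CDK2 (SD, n = 6). The adjusted p of these 3 genes in the comparisons with butyrate was at most 2.38e-07 in limma.

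CCNA2, the cyclin A2 gene whose probe and promoter are shown above, fell furthest with butyrate alone. It was at 2.22, 2.62 and 2.81 on the Ctl arrays and at -0.73, -0.06 and 0.61 on the NaB arrays, so that the groups were more than a log2 unit apart at their nearest arrays. The fall was 2.62 ± 0.28 (SD, n = 6; limma adjusted p = 1.14e-13), or 6.16-fold. On the Doxy arrays it was at 2.11, 2.44 and 2.50 and on the DoxyNaB arrays at -0.60, -0.44 and -0.03, with the same wide gap. The change there was -2.76 ± 0.21 (SD, n = 6; limma adjusted p = 5.41e-14), or 6.77-fold lower.

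CCNB1, for cyclin B1, was at 4.11, 4.21 and 4.37 in Ctl and at 2.25, 2.39 and 2.89 in NaB, read from the probe shown above. It fell by 1.73 ± 0.20 (SD, n = 6; limma adjusted p = 1.40e-11), and no array of one group entered the range of the other. Its second probe, at chr5:68509628-68509687, gave -2.10 ± 0.27 (SD, n = 6). CCNB2, for cyclin B2, was at 3.40, 3.57 and 3.70 in Ctl and at 1.88, 2.05 and 2.68 in NaB, also without overlap. Its change was -1.38 ± 0.25 (SD, n = 6; limma adjusted p = 3.61e-10). With doxycycline present, CCNB1 changed by -1.51 ± 0.27 and CCNB2 by -1.27 ± 0.29 (SD, n = 6).

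In DoxyNaB/Doxy, the comparison that asks for the butyrate response of cells given doxycycline, 8 of 9 genes were again lower and CCND3 higher, against 30.3% of all gene names lower and 38.1% higher. With a fold over 2, 7 were lower and 1 was higher, against 12.5% and 18.7%. The groups did not overlap for any of the 9 genes, as was so for 20.9% of all gene names in the lower and 22.5% in the higher direction. The median change of the 9 was -1.27, beside 0.10 over all probes tested.

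**Figure D2:**
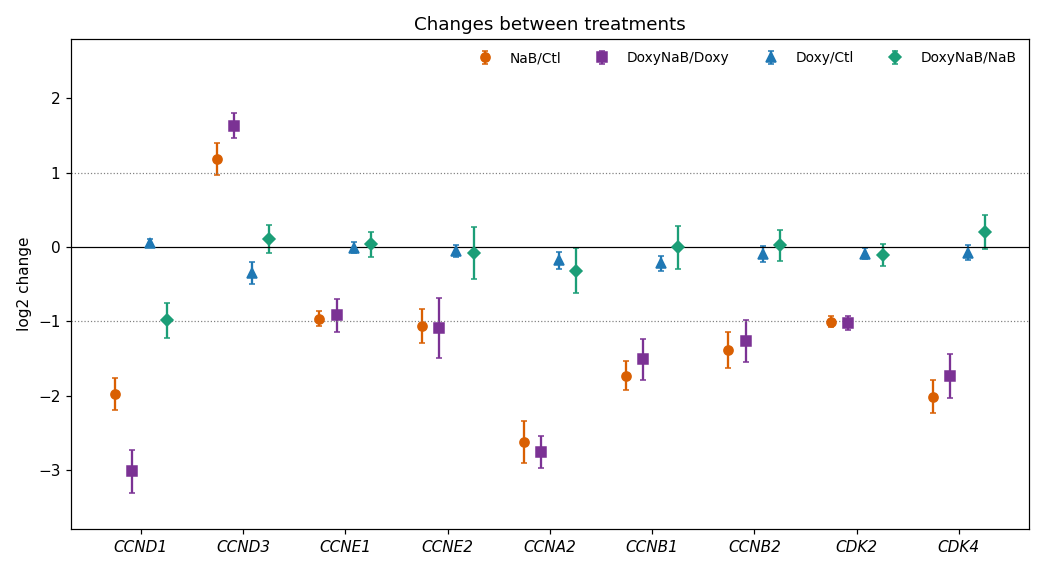
Change between treatments (log2) of the 9 tested genes in 4 comparisons. Symbols are means over 6 experiments, bars are the SD over experiments and dotted lines mark 2-fold. The comparisons with butyrate lie far from 0 and those of doxycycline lie near it, apart from CCND1 in DoxyNaB/NaB at -0.99.

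Doxycycline alone changed none of the 9 genes at the threshold in limma (Doxy/Ctl, against 0.0924% of all gene names lower and 0.462% higher, and 0.0264% and 0.066% with a fold over 2), and 2 had an unadjusted p under 0.05. The methods' t-test also called 0 after adjustment. Changes ran from -0.35 for CCND3 to 0.05 for CCND1. CCND3 was lower in 6 of 6 experiments, by 0.35 ± 0.15 (SD, n = 6; limma adjusted p = 0.0320), with overlapping groups. CCNB1 was also lower in 6 of 6, and its Doxy arrays, at 3.92, 4.02 and 4.06, lay just under its Ctl arrays without overlap, as was so for 0.304% of all gene names in that direction, yet the difference of -0.22 ± 0.10 (SD, n = 6; limma adjusted p = 0.331) did not pass. The second CCNB1 probe was lower in 5 of 6, with a change of -0.18 and overlapping groups. For CCND1 the difference was 0.05 with a 95% interval of -0.15 to 0.26, higher in 6 of 6 experiments by at most 0.15.

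Whether the DN-Tcf4 construct was switched on can be read in part from TCF7L2, the gene of Tcf4, although the arrays' probes need not all lie in the part that the construct carries. Its brightest probe was at -2.49 ± 1.17 in Ctl, -1.58 ± 1.07 in NaB, -2.66 ± 0.81 in Doxy and 1.39 ± 0.49 in DoxyNaB (SD, n = 6). It was thus raised in DoxyNaB and not detectably in Doxy. Another of its 3 probes rose by 6.06 in DoxyNaB/Doxy. It rose by 1.90 with butyrate alone too, in 6 of 6 experiments (limma adjusted p = 4.68e-04). However, its signal cleared background in just 1 Ctl array, 3 NaB arrays and 3 Doxy arrays, against all 6 DoxyNaB arrays. Both rises thus start from levels near background, and their sizes are uncertain. The third fell by 1.70 in DoxyNaB/Doxy. AXIN2, a standard Wnt target, changed by 1.19 ± 0.29 in NaB/Ctl, -0.58 ± 0.15 in Doxy/Ctl and -2.53 ± 0.34 in DoxyNaB/NaB (SD, n = 6).

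With butyrate present, doxycycline lowered 1 of the 9 genes, CCND1 (DoxyNaB/NaB, against 2.03% of all gene names lower and 0.693% higher). The lowest of its 6 NaB arrays was at 0.98 and the highest of its 6 DoxyNaB arrays at 0.76, so the groups did not overlap, as was so for 1.4% of all gene names in that direction. CCND1 changed by -0.99 ± 0.24 (SD, n = 6; limma adjusted p = 2.73e-06), or 1.98-fold lower, and it was lower in 6 of 6 experiments with changes from -1.30 to -0.70. Among the other 8 genes the changes lay between -0.32 and 0.21 and the lowest limma adjusted p was 0.0866. That was CCNA2, lower in 5 of 6 experiments. CDK4 was higher in 6 of 6, by 0.21 ± 0.23 (SD, n = 6; limma adjusted p = 0.296).

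Subtracting DoxyNaB/Doxy from NaB/Ctl tests whether doxycycline altered the response to butyrate itself. It passed for CCND1 alone among the 9 genes, against 0.244% of all gene names with a less positive and 1.12% with a more positive response without doxycycline. The difference for CCND1 was 1.04 ± 0.25 (SD, n = 6; limma adjusted p = 2.02e-04), and it was 0.71 in the experiment with the smallest difference and 1.37 in that with the largest. It was 1.12 on average within experiments 2 to 4 and 0.76 within experiments 5 and 6, each set sharing 1 scan date. The adjusted p was 0.155 and 0.259 in limma in these smaller sets. DoxyNaB/NaB was -1.05 and -0.74 in the same sets (limma adjusted p = 0.0263 and 0.154). With each array scaled to its median after a floor of 5 the difference was 0.85 (limma adjusted p = 0.983), and DoxyNaB/NaB was -0.88 (limma adjusted p = 0.0993). The paired test of the study's methods, after Benjamini-Hochberg adjustment, did not call CCND1 in either comparison. In this paired test the adjusted p was 0.0381 for the difference and 0.0255 for DoxyNaB/NaB. The adjustment was added here, since the study names none for its test. The study itself reports cyclin D1 as significantly lower in DoxyNaB/NaB.

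**Figure D3:**
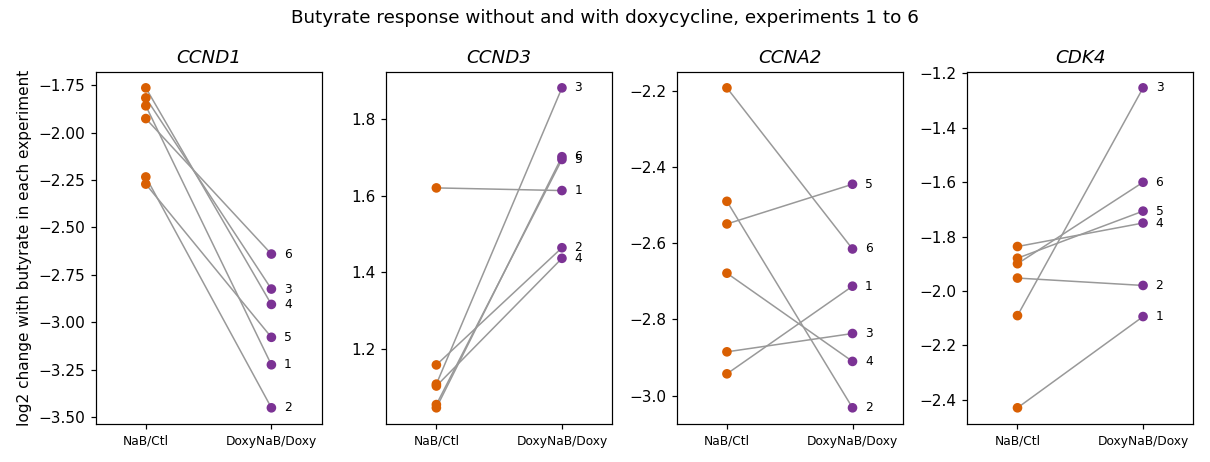
Butyrate response (log2 change) without doxycycline (NaB/Ctl) and with it (DoxyNaB/Doxy) in each experiment, for CCND1, CCND3, CCNA2 and CDK4, each with its own y axis that does not start at 0. Lines join the values of an experiment, numbered at the right. All 6 lines fall for CCND1, 5 of 6 rise for CCND3 and CDK4, and the lines of CCNA2 cross.

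CCND3 had a rise with butyrate that was larger with doxycycline in 5 of 6 experiments, and its difference of -0.45 ± 0.29 (SD, n = 6; limma adjusted p = 0.0326) passed only without experiment 1, at -0.54 (limma adjusted p = 0.00991). The difference for CDK4 was -0.28 ± 0.30 (SD, n = 6; limma adjusted p = 0.403). For CCNA2 it was 0.14, with a 95% interval of -0.16 to 0.43. The 95% intervals of the remaining genes reached from -0.50 for CCNB1 to 0.38 for CCNE2.

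Over the 24 arrays, each centred on the mean of its experiment, the probes most like CCND1 of 14635 genes were those of FHL2 (r = 0.996), TRIML2 (r = 0.996) and PUM3 (r = 0.992). The arrays share the 4 treatments, so the likeness is mostly one of treatment means. FHL2, a LIM domain protein gene, changed by -1.31 in NaB/Ctl and by -0.62 in DoxyNaB/NaB, both of the same sign as for CCND1. TRIML2 changed by -1.22 and -0.69 in these comparisons, and PUM3 by -0.83 and -0.30. Most like CCNA2 were DUT, the dUTPase gene (r = 0.998), NUP35, a nuclear pore gene (r = 0.997), and ALYREF, an mRNA export factor gene (r = 0.997). DUT changed by -1.53 in NaB/Ctl and by -1.59 in DoxyNaB/Doxy.

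The cyclins and kinases were set beside 71 other cell cycle genes in 7 lists, of which 70 were tested. With butyrate alone, 41 were lower and 15 higher, where 29% of all gene names were lower and 40.6% higher. With doxycycline present, 39 were lower and 18 higher, against 30.3% and 38.1% of all gene names. Doxycycline alone changed 0 of the 70, and it changed few genes at all (0.0924% of gene names lower and 0.462% higher).

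Lists that act with CCNE1, CCNA2 and the B cyclins moved mostly down in NaB/Ctl, where 29% of all gene names were lower and 40.6% higher. Of 13 E2F and pocket protein genes, the factors that cyclin D and E kinases control, 10 were lower and 0 higher (median -1.15), led by E2F8 at -3.21 and E2F2 at -2.73. The E2F8 probe was well above background on 6 Ctl arrays but on 4 NaB arrays. Its fall had an SD of 0.98 (n = 6), and the size of this fall is uncertain. Of 8 mitotic kinase and checkpoint genes all 8 were lower (median -1.88), with AURKB at -2.32 and BUB1B at -2.13. Of 7 genes of the MuvB core with its partners B-MYB and FOXM1, which bind the CHR, 5 were lower and 1 higher (median -1.32). FOXM1 changed by -2.14 and LIN37 by 1.35, and LIN9 was also among the falls.

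The remaining lists, here and in the next paragraph, had members on both sides. Their counts are to be read against the 29% of gene names lower and 40.6% higher in this comparison. Among 10 other cyclins and CDKs tested, 4 were lower and 4 higher (median -0.02). CDK6, the other partner of D-type cyclins, changed by -2.17 and CDK1, the partner of the B cyclins, by -2.05. CCNB3 rose by 1.58 and CCNG2 by 1.31. Of 14 genes of cyclin destruction, 5 were lower and 4 higher (median 0.04). FBXO5, an inhibitor of the anaphase promoting complex, changed by -2.61 and UBE2C, the ubiquitin-conjugating enzyme of that complex, by -2.34, while FBXO31 rose by 1.06 and SKP1 by 0.51.

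Among 8 CDK inhibitor genes 3 were lower and 4 higher (median 0.13). CDKN1C, which encodes p57 and inhibits CDK2 complexes, rose by 3.33 ± 0.32, and CDKN2D, an inhibitor of CDK4 and CDK6, rose by 1.66 ± 0.20 (SD, n = 6). CDKN2A changed by -1.80 and CDKN1B by -0.93. Of 10 CDK phosphatases, kinases and cofactors, 6 were lower and 2 higher (median -0.85). WEE1, the kinase that inhibits CDK1, changed by -2.87 and CDC25A, a phosphatase that activates CDK2, by -2.62. CCNH and MNAT1, subunits of the CDK-activating kinase, rose by 0.51 and 0.58.

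Of the 70 genes, 2 had a butyrate response that differed with doxycycline, both less positive without it, as for 0.244% of all gene names (1.12% were more positive), and neither was a cyclin. CDC25B, a phosphatase that activates CDK1, changed by -0.80 ± 0.11 in NaB/Ctl (SD, n = 6) and by 1.07 in DoxyNaB/Doxy. The difference was -1.87 ± 0.32 (SD, n = 6; limma adjusted p = 8.26e-08), opposite in sign to that of CCND1. CKS2, a small CDK-binding protein gene, had a difference of -0.71 ± 0.35 (SD, n = 6; limma adjusted p = 0.00275).

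**Figure D4:**
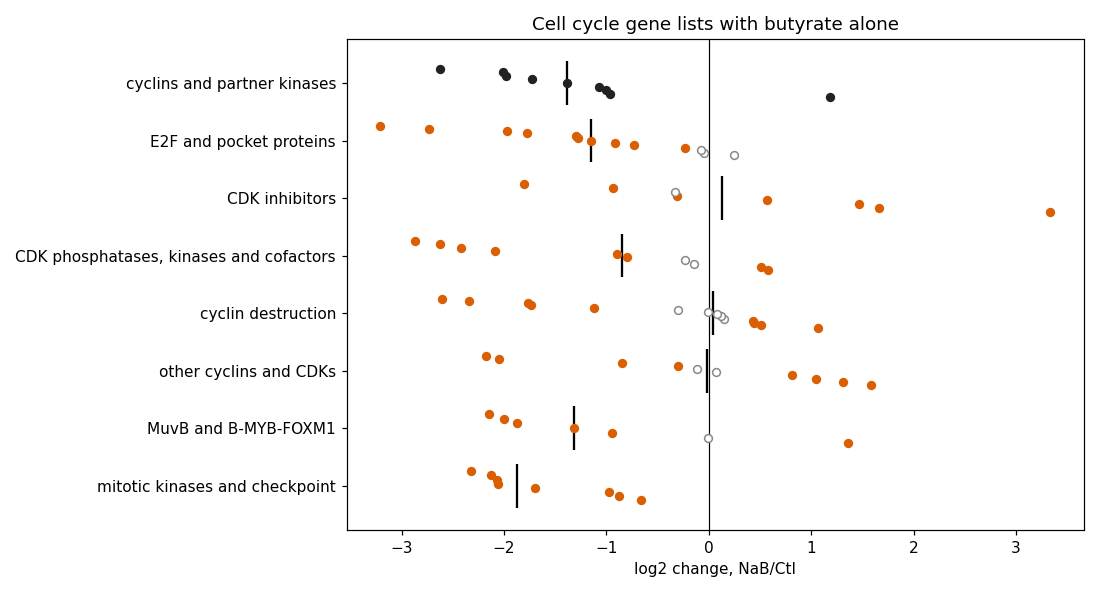
Change with butyrate alone (NaB/Ctl, log2) of the 9 tested cyclins and kinases (black) and of 70 other cell cycle genes in 7 lists (orange where the adjusted p was under 0.01, open where not). Points are genes, ordered by value within a row, and vertical bars are medians. The mitotic kinase list lies wholly below 0 and the CDK inhibitors lie on both sides of it, up to 3.33.

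All 6 epithelial markers (EPCAM, CDH1, KRT8, KRT18, KRT19 and CLDN4) were well above background on all 24 arrays. Of 4 leukocyte markers 0 were above background on all 24, and their summed level was between -2.82 and -1.36 in Ctl and between -0.76 and -0.06 in NaB. Of 5 fibroblast and endothelial markers 1 was, COL1A1, and COL3A1 was above background on none. Their summed level was between -1.83 and -0.81 in Ctl and between -1.04 and 0.54 in NaB, and the part of these rises in the changes of the cyclins was not tested. The net signal of negative control spots ran from 48.8 to 248.9 on arrays with butyrate and from 48.4 to 79.6 on those without it. The part of this background in the rises of the dim markers was not tested either. The 75th percentile signal ran from 380.2 to 1323 over the arrays, and 52.5% to 62.4% of spots were well above background in experiments 1, 5 and 6 against 78.3% to 88.1% in experiments 2 to 4. In experiment 1 the arrays with butyrate shared a slide and a scan date, and those without it shared another slide and another scan date. Slide, scan date and butyrate therefore cannot be told apart there, whereas each other experiment was on 1 slide of its own and within 1 scan date.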

How the data were processed

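RNA of 24 cultures was hybridised to Agilent human 4x44K v2 arrays, 1 array per sample. The deposited files are scanner output of Agilent Feature Extraction 9.5.3.1, whose processed signal is an intensity that the software had background-subtracted, with no scaling between arrays. Per the study's methods, GeneSpring and a paired test followed. That output was not used here.

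Here, control spots and outlier-flagged spots were left out, each intensity was divided by the 75th percentile of its array, and spots of a probe were averaged after log2. The 18984 probes for which some treatment had all 6 arrays well above background were fitted in limma 3.58.1 (R 4.3.3) with treatment and experiment as terms over all 24 arrays, and p-values were Benjamini-Hochberg adjusted. The leading probe of a gene has the highest mean level. Tests were two-sided. The number of arrays limits the precision. Of these steps only the limma fit was tested on simulated data.

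Samples with the same experiment number mostly deviated together: of 36 pairs of arrays, 35 correlated over 0.1 and the lowest r was -0.22. The pair with that lowest r was the NaB and DoxyNaB arrays of experiment 3, which enter DoxyNaB/NaB and the interaction. The study's test is paired, so experiment stayed as a block.

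Probes were named by the file's symbol or, for 24824 of them, by accession through RefSeq tables on GRCh38.p14, and promoters came from the same source. Text names all 10 genes with every probe; from each list, up to 2 genes that rose most and 2 that fell most in NaB/Ctl at an adjusted p under 0.01 in 6 of 6 experiments, and any passing the interaction; the 3 genes most correlated with CCND1 and with CCNA2; and TCF7L2 and AXIN2. The genes and lists were chosen with earlier results of these data known. Alternatives covered background correction, scaling, filter, block, slide, test, threshold, probe choice, scan date and each experiment left out. Figures used matplotlib 3.10.9.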

Additional observations from a re-analysis of the deposited data

Results flagged for a closer look

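In 11 of 48 sets of 6 arrays (12 probes in 4 treatments) 1 array stood far from the others by Dixon's criterion, which chance alone flags in about 5% of sets, and 9 of the 11 were arrays of experiment 1. CDK2 was low there, at 1.16 in Ctl, 0.050 in NaB and 1.13 in Doxy, and so was the dimmer CCNE2 probe, at -1.82 in Ctl, -2.67 in NaB and -2.04 in Doxy. In the same experiment CDK4 was high in Ctl at 4.75, CCND3 was high in NaB at 2.62 and CCNA2 was low in Doxy at 2.11. Outside it, CCNE1 was low at 2.44 on the Doxy array of experiment 3 and the brighter CCNE2 probe was low at -0.48 on the DoxyNaB array of experiment 2, the array with the highest negative control signal. The calls of these genes in the comparisons with butyrate did not change without experiment 1.

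The butyrate response of CCND1 differed between cells without and with doxycycline, by 1.04 (limma adjusted p = 2.02e-04), in the same direction in 6 of 6 experiments.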

How the results depend on the processing

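The 8 falls and 1 rise in DoxyNaB/Doxy and the 8 falls in NaB/Ctl kept their counts under all alternatives to within 1.5 times, the 2-fold rule included. Scaling each array to its median after a floor of 5 left 0 rises in NaB/Ctl, where CCND3 was 0.43, and 0 calls in DoxyNaB/NaB and in the interaction. The median of all probes in NaB/Ctl stood at 0.17 with the 75th percentile, 0.07 with normexp, -0.05 with quantile normalization and -0.58 with median scaling. The methods' t-test after adjustment, experiments 2 to 4 alone and experiments 5 and 6 alone also gave 0 calls in DoxyNaB/NaB and 0 in the interaction. The 2-fold rule gave 0 in DoxyNaB/NaB. The sets by scan date hold fewer samples, and other causes were not tested. In Doxy/Ctl the methods' t-test without adjustment gave 2 members lower (CCND3 and CCNB1) and an adjusted p under 0.05 gave 1. For a less positive interaction, an adjusted p under 0.05 gave 1 (CCND3), and leaving out each experiment in turn gave 0 to 1. The sign turned for CCND1 in Doxy/Ctl, to -0.031 with median scaling, and for CDK4 in the interaction, to 0.016 with normexp, as it did for 8 of 110, 17 of 110 and 13 of 126 values of the other genes in Doxy/Ctl, DoxyNaB/NaB and the interaction, none with an adjusted p under 0.226. Without the replicate block the counts were 8 lower and 1 higher in both comparisons with butyrate, 0 in Doxy/Ctl and 1 in DoxyNaB/NaB and the interaction, so that the pairing changed no call. An interaction within only the arrays of 2 groups has no value. CCND2 was near background, which limits what its probe can show.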
